A study of Mus musculus with 6 samples.

Results

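The liver transcripts of 31 genes of apolipoproteins and lipoprotein handling were compared between Trim24 knockout and wild type mice. The members were taken by gene symbol, 31 of the 23284 genes counted in each library, and comprised 13 apolipoproteins, 5 genes of particle assembly and secretion, 4 lipases and remodelling proteins, 4 sterol transporters, and 5 receptors and receptor partners. Liver was taken from C57BL6/J mice aged 8 weeks, homozygous for the Trim24 deletion (Trim24 -/-, here KO, 3 libraries) or wild type (WT, 3 libraries). Trim24 encodes a cofactor of nuclear receptors, and the title of the series concerns hepatic lipid accumulation and liver cancer in these mice. Sex, diet and the way the allele was made are not given in the sources used here, nor whether the replicates came from separate animals, so the p-values reflect only how these libraries vary among themselves, which may be technical variation.

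Hepatocytes load triglyceride onto apolipoprotein B with the microsomal triglyceride transfer protein and secrete the particle as very low density lipoprotein, and they also secrete the proteins of high density lipoprotein. Exchangeable apolipoproteins on these particles activate or inhibit the lipases and acyltransferase that remodel them in plasma, and hepatic receptors take the remnants and the cholesterol of high density lipoprotein back. In mouse liver, unlike human liver, the messenger RNA of Apob is edited by Apobec1, which yields a shorter protein. Editing cannot be read from counts per gene.

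Reads counted in genes numbered 1607276, 1754269 and 2872421 in KO1 to KO3 and 1495583, 1597540 and 1732309 in WT1 to WT3, only 4.74% to 6.69% of the reads in the KO files and 4.22% to 5.40% of those in the WT files. The annotation and strand setting of the counting are not given in the sources used here, and what the low share means for the counts was not tested. Trim24 had 3, 2 and 2 reads in KO1 to KO3 and 31, 45 and 44 in WT1 to WT3, as a check of the labels. The 20 pancreatic acinar genes listed as markers reached totals of 986, 14.1 and 652 CPM in KO1 to KO3 and of 12.5 to 39.8 CPM in the WT libraries (CPM, reads of a gene for every 1000000 reads that fell in tested genes, adjusted by TMM). KO2 is therefore also set alone against WT for some of the results that follow. A fit with KO2 as the only KO library cannot measure how KO libraries vary. The hepatocyte list, which albumin leads, summed to 91502, 66508 and 94635 CPM in KO1 to KO3 and to between 96758 and 106900 CPM in WT, and none of its 10 genes was called. The 12 stellate cell markers summed to 699.7 to 839.6 CPM in KO and 535.7 to 593.8 CPM in WT. Of their 10 tested genes 2 were called higher and 0 lower, against 3.08% and 2.65% of all tested genes. Their median log2 fold change, KO over WT, was 0.58. In whole liver, a change in the number of cells of a type and a change in RNA per cell cannot be told apart.

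Of the 31 genes, 3 were called. Lipc, the hepatic lipase, and Scarb1, the receptor for high density lipoprotein, fell in KO, and Apobec1, the editing enzyme of Apob, rose. None of the 13 apolipoproteins was called by edgeR's quasi-likelihood test at an adjusted p under 0.05, although 4 of them had an unadjusted p under 0.05. DESeq2, limma-voom and the edgeR exact test called none of the 13 either. Every one of the 31 genes passed the filter on low counts. Of them 1 (3.23%) was higher and 2 (6.45%) were lower, where 3.08% and 2.65% of all 9180 tested genes were called in those directions, which makes 9.68% of the 31 genes against a background of 5.73%. Without scaling factors, 373 genes in all were higher and 172 lower, in place of 283 and 243. The median log2 fold change, KO over WT, was -0.19 over the 31 genes and 0.01 over all tested genes.

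**Figure D1:**
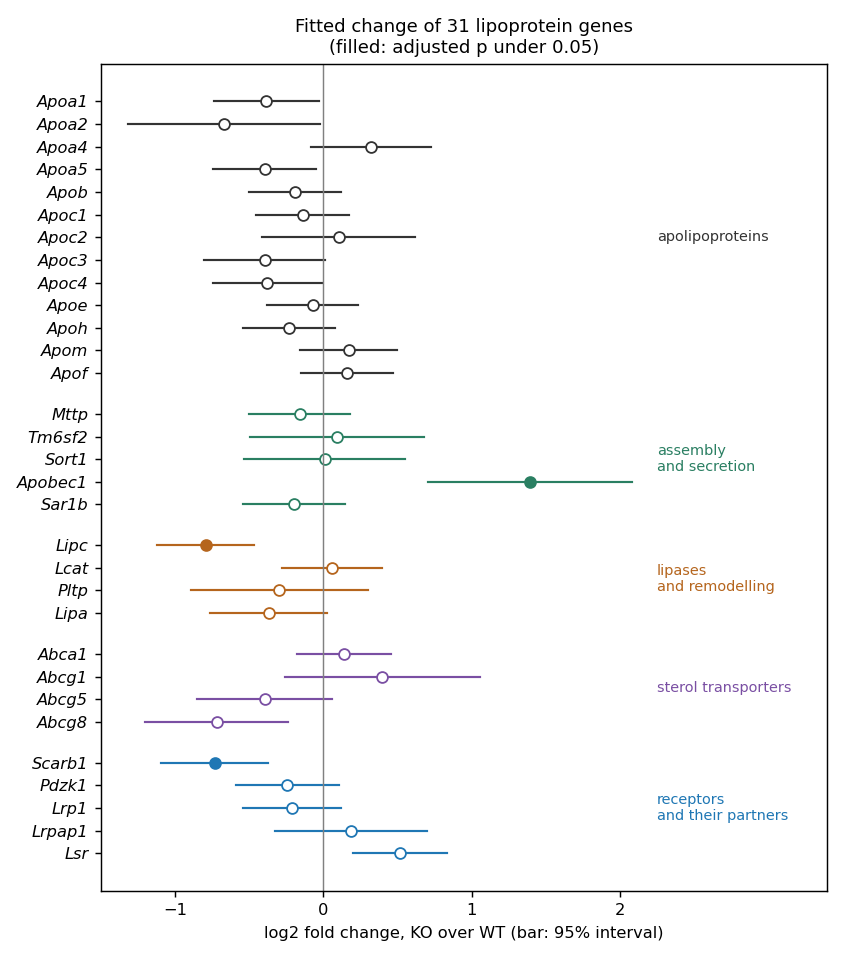
Fitted log2 fold change, KO over WT, of each of the 31 genes with its 95% interval, in 5 groups by role; filled circles mark the 3 genes with an adjusted p under 0.05. Lipc and Scarb1 lie at -0.79 and -0.73 and Apobec1 at 1.40, while 9 of the 13 apolipoproteins lie below 0 with intervals that reach or nearly reach it.

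The groups did not overlap for 11 of the 31 genes (35.5%), against 25.0% of all tested genes. In 8 of these the 3 KO libraries all lay below the 3 WT libraries (25.8%, against 12.6% of all tested genes), namely Apoa1, Apoa2, Apoa5, Apob, Apoc3, Apoh, Lipc and Scarb1. In the other 3, Apof, Apobec1 and Lsr, they all lay above (9.68%, against 12.4%). Unadjusted p was under 0.05 for 9 of the 31 (29.0%, against 20.3%). Without scaling factors the groups did not overlap for 8 of the 31 (25.8%), level with the 25.7% of all tested genes. With DESeq2 size factors or upper-quartile factors it was 10 (32.3%, against 25.0%). With a filter at 1 CPM in 3 libraries it was 13 (41.9%, against 22.6%), and with no filter 11 (35.5%, against 18.2%).

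Apolipoproteins held most of the highest levels per length. Divided by the length of all annotated exons, Apoe stood at 2496 ± 195 CPM per kilobase in KO and 2626 ± 123 in WT, and Apoa1 at 2492 ± 482 and 3253 ± 172 (SD, n = 3 each). Apoa2 and Apoc1 followed, and then Apob at 1157 ± 54.8 in KO and 1320.0 ± 96.4 in WT. The secreted acyltransferase gene Lcat had 287 ± 29.6 CPM per kilobase in KO and 276 ± 30.2 in WT. Among the receptors, Lrp1 stood at 59.5 ± 7.7 in KO and 68.8 ± 4.9 in WT and Scarb1 at 7.21 ± 0.54 in KO and 12.03 ± 2.28 in WT. The sterol transporter gene Abcg1 had the lowest level of the 31, at 1.75 ± 0.37 and 1.34 ± 0.34. The first 12 ranks in WT were held by 11 apolipoproteins and Lcat.

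**Figure D2:**
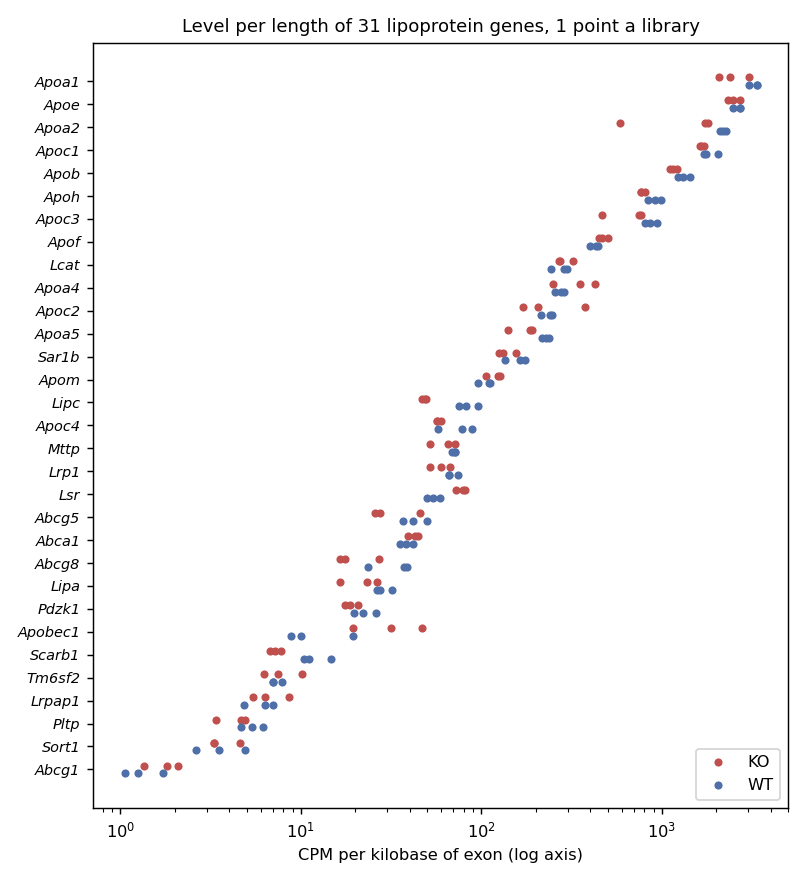
Level of the 31 genes as CPM per kilobase of annotated exon on a log axis, 1 point a library, KO above WT in each row. The genes are ordered by their WT mean, which spans 1.34 for Abcg1 to 3253 for Apoa1.

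The apolipoproteins were described first. Together they had 30980.1, 28585 and 32062 CPM in KO1 to KO3 and 35046.5, 35573 and 34333 CPM in WT1 to WT3. Each KO library lay below each WT library, and the same held without any scaling factor, at 3.11%, 3.002% and 3.21% of the reads in genes in KO1 to KO3 and 3.35%, 3.37% and 3.34% in WT1 to WT3. Apob, the structural protein of very low density lipoprotein, supplied most of that sum, with 16949, 15439 and 15994 CPM in KO1 to KO3 and 18156.5, 19829.6 and 17173 CPM in WT1 to WT3. Its groups did not overlap, but the log2 fold change was only -0.19 (SE 0.14, edgeR adjusted p = 0.51). The hepatocyte list above was also lowest in KO2 and below WT in all KO libraries, and its part in the lower apolipoprotein sum was not tested.

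Apoa1 and Apoa2 encode the main proteins of high density lipoprotein. Apoa1 had 2946, 2563 and 3730.1 CPM in KO1 to KO3 and 4146, 3774 and 4141 CPM in WT1 to WT3, a log2 fold change of -0.38 (SE 0.16, edgeR adjusted p = 0.21). Apoa2 had 924, 316 and 965 CPM in KO1 to KO3 and 1125, 1171 and 1219 CPM in WT1 to WT3, with a log2 fold change of -0.67 (SE 0.30, edgeR adjusted p = 0.23). Most of that distance came from KO2, which had less than any other library. Without KO2 the log2 fold change of Apoa2 was -0.31. With KO2 as the only KO library it was -1.89 and Apoa2 was called, in a fit that cannot measure how KO libraries vary. With no filter on low counts Apoa2 was called lower (edgeR adjusted p = 0.0032), a setting that called 576 genes higher and 509 lower. The filtered fit called 283 and 243. Apoa2 was not called by DESeq2 (adjusted p = 0.66), limma-voom (0.16) or the edgeR exact test (0.22).

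Apoa5, Apoc3 and Apoa4 act on triglyceride-rich particles. Apoa5, an activator of triglyceride clearance, had 470.0, 352 and 481 CPM in KO1 to KO3 and 597, 544 and 575 CPM in WT1 to WT3 (log2 fold change -0.40, SE 0.16, edgeR adjusted p = 0.18). Apoc3, an inhibitor of that clearance, had 781, 471 and 755 CPM in KO1 to KO3 and 870.3, 821 and 952 CPM in WT1 to WT3 (-0.40, SE 0.19, edgeR adjusted p = 0.26). Activator and inhibitor thus had nearly the same fitted change, and KO2 was lowest for both. With KO2 as the only KO library the log2 fold change of Apoc3 was -0.91 and that of Apoa5 -0.70. Without KO2 that of Apoc3 was -0.19 and that of Apoa5 -0.26. Apoa4, a protein of intestinal and hepatic particles, had 449.6, 768 and 636 CPM in KO1 to KO3 and 523, 463 and 499 CPM in WT1 to WT3 (0.32, SE 0.19, edgeR adjusted p = 0.36). KO1 was below all WT libraries for Apoa4 and the other KO libraries were above them. Of 12 enterocyte markers, only Fabp2 passed the filter, and Cdx1 was at 0 in every library. The list summed to 58.6 to 83.5 CPM in KO and 57.5 to 93.6 CPM in WT. Fabp2 supplied most of that sum, so the sum says little of the other markers. Muc13 had 2, 17 and 18 reads in KO1 to KO3 and 0 in each WT library, while the groups overlapped for all other markers of the list. A transcript annotated on the opposite strand over 34.9% of the Apoa4 exon bases cannot be told apart from it where strand was not used. The same holds for the antisense gene over 20.8% of the Apoa5 exon bases.

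These genes lie side by side on chromosome 9 in the order Apoa1, Apoc3, Apoa4, Apoa5. Ratios of read counts within a library need no scaling factor. Apoa4 to Apoa1 was 0.153, 0.300 and 0.171 in KO1 to KO3 and 0.126, 0.123 and 0.1205 in WT1 to WT3, so every KO ratio was above every WT ratio. Apoa4 to Apoa5 was 0.957, 2.18 and 1.32 in KO1 to KO3 and 0.876, 0.852 and 0.867 in WT1 to WT3, again without overlap. Apoa4 to Apoc3, its next neighbour, was 0.576, 1.63 and 0.842 in KO1 to KO3 and 0.601, 0.564 and 0.524 in WT1 to WT3, where KO1 lay within the WT range and the groups overlapped. Apoc3 to Apoa1 overlapped too, with means of 0.217 ± 0.043 in KO and 0.219 ± 0.010 in WT (SD, n = 3 each). The ratios were chosen after the values had been seen and were not tested.

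**Figure D3:**
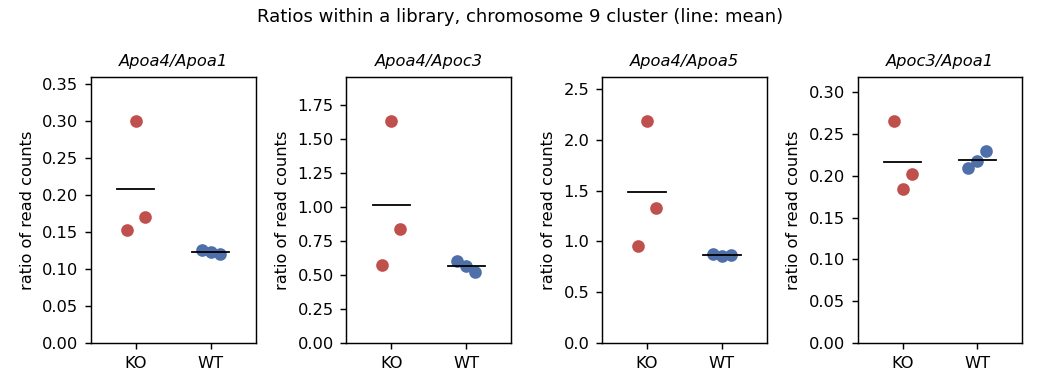
Ratios of read counts within each library for 4 pairs of genes of the chromosome 9 cluster, KO left of WT, with the mean as a line. Apoa4 stands higher against Apoa1 and Apoa5 in all KO libraries, most in KO2 at 0.300 and 2.18, whereas Apoa4 to Apoc3, at 0.576 in KO1, and Apoc3 to Apoa1 overlap between the groups.

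None of the chromosome 7 cluster of Apoe, Apoc1, Apoc4 and Apoc2 was called either. Apoe, a ligand of hepatic remnant receptors, had 4959.5, 5267 and 5785 CPM in KO1 to KO3 and 5774, 5311 and 5759 CPM in WT1 to WT3. Its log2 fold change of -0.07 had a 95% interval of -0.38 to 0.24, and it turned positive without scaling factors. Apoc1, an inhibitor of lipoprotein uptake, averaged 1237 ± 37.8 CPM in KO and 1364 ± 132 CPM in WT (SD, n = 3 each), at -0.14 on the log2 scale. Apoc4 averaged 147 ± 4.2 CPM in KO and 190.2 ± 40.6 CPM in WT, a log2 fold change of -0.38 (edgeR adjusted p = 0.24). Apoc2, the cofactor of lipoprotein lipase, had 137, 168 and 304 CPM in KO1 to KO3 and 175, 201 and 195 CPM in WT1 to WT3. KO3 alone was above WT for Apoc2, and without it the fitted log2 fold change was -0.32 in place of 0.10. The annotated gene Gm44805, on the same strand, covers 79.5% of the Apoc2 exon bases and 4.69% of those of Apoc4, and has no row of its own in the files.

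The remaining apolipoproteins went both ways. Apoh, a phospholipid-binding plasma protein, averaged 1239.7 ± 35.6 CPM in KO and 1458 ± 120.4 CPM in WT (SD, n = 3 each), without overlap, at a log2 fold change of -0.23 (edgeR adjusted p = 0.39). Apom, the carrier of sphingosine phosphate on high density lipoprotein, averaged 121 ± 11.5 CPM in KO and 107 ± 9.4 CPM in WT, at 0.17 with a 95% interval of -0.16 to 0.50. Apof, known in human plasma as an inhibitor of lipid transfer, averaged 595 ± 35.0 CPM in KO and 534 ± 27.8 CPM in WT, at 0.16 with an interval of -0.15 to 0.47. KO2 had the lowest level of all 6 libraries for 7 of the 13 apolipoproteins, KO1 for 4, and WT1 and WT3 for 1 each. KO libraries thus held the lowest value for 11 of the 13, 7 of them in KO2. The highest level was in KO2 for 1 and KO3 for 4, and in WT1, WT2 and WT3 for 3, 1 and 4. The same shares over all tested genes were not counted.

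**Figure D4:**
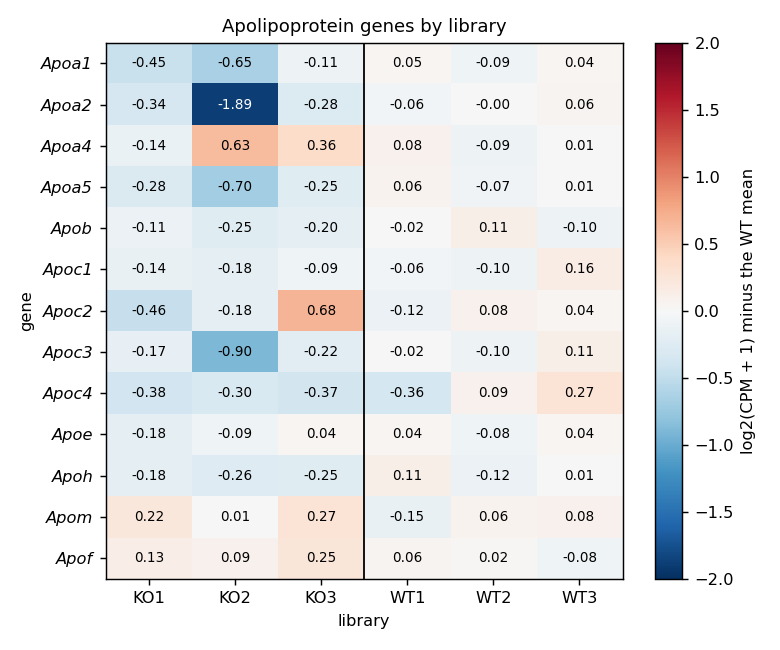
Log2(CPM + 1) of the 13 apolipoprotein genes in each library minus the mean of the 3 WT libraries. KO2 stands apart for Apoa2 at -1.89 and Apoc3 at -0.90, and Apoa4 is above the WT mean in KO2 and KO3 and below it in KO1.

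Among the assembly and secretion genes Apobec1 rose. It had 52.6, 85.2 and 127 CPM in KO1 to KO3, from 85, 157 and 366 reads, and 52.4, 27.1 and 23.8 CPM in WT1 to WT3, from 75, 41 and 40 reads. Spread was wide in both groups, and KO1 and WT1 were nearly level. The log2 fold change was 1.40 (SE 0.32, edgeR adjusted p = 0.022), 2.63-fold higher in KO. The call was lost without KO2, KO3, WT2 or WT3 (adjusted p = 0.0501, 0.084, 0.10 and 0.12). With KO2 as the only KO library the log2 fold change of Apobec1 was 1.32. Macrophages also express Apobec1, and the 15 Kupffer cell and macrophage markers summed to 429, 784 and 774 CPM in KO1 to KO3 and to 265, 493 and 382 CPM in WT1 to WT3. Of their 14 tested genes 3 were called higher and 0 lower, against 3.08% and 2.65% of all tested genes. The median log2 fold change of these markers was 0.80. No marker was at 0 throughout, and their part in the rise of Apobec1 was not tested. The 300 bases around the annotated start of Apobec1 (250 before and 50 after it, RefSeq, GRCm38.p6, chr6:122602395-122602694, minus strand) are shown because it is the member with the largest fitted change, with the TATA-like letters TATAAA, here on the opposite strand 212 bases before the start, in capitals.
Apobec1: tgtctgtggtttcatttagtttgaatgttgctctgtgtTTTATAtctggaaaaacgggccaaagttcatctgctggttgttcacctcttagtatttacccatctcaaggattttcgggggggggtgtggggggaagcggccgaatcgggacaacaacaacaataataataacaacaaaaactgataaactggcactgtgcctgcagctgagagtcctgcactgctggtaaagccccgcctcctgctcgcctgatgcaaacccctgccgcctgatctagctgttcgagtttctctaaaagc

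The other 4 assembly genes were not called. Mttp, the triglyceride transfer protein that lipidates apolipoprotein B, averaged 390.2 ± 63.6 CPM in KO and 437 ± 9.3 CPM in WT (SD, n = 3 each), at a log2 fold change of -0.16. Sar1b, the small GTPase that starts the coat of the vesicles exporting these particles, averaged 173 ± 20.2 CPM in KO and 198 ± 25.6 CPM in WT, at -0.20. Tm6sf2, needed for full lipidation of the particle, had 31, 26 and 34 reads in KO1 to KO3 and 19, 20 and 25 in WT1 to WT3, which the scaled levels turned into 15.0 ± 3.8 CPM in KO and 13.8 ± 0.92 CPM in WT. Sort1, a sorting receptor that binds apolipoprotein B, averaged 28.2 ± 5.6 CPM in KO and 27.9 ± 8.6 CPM in WT. For Tm6sf2 and Sort1 the 95% intervals of the log2 fold change ran from -0.49 to 0.68 and from -0.53 to 0.55, so changes within those limits are not excluded.

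Among the lipases and remodelling genes Lipc fell. Lipc, which hydrolyses triglyceride and phospholipid of remnants and high density lipoprotein, had 105, 106 and 101 CPM in KO1 to KO3, from 170, 196 and 290 reads, and 205, 161 and 176 CPM in WT1 to WT3, from 294, 243 and 296 reads. The KO libraries lay close together and all below WT. The log2 fold change was -0.79 (SE 0.15, 95% interval -1.12 to -0.47, edgeR adjusted p = 0.0081), 1.73-fold lower in KO. The call held whichever library was left out, with log2 fold changes of -0.88 to -0.70 and adjusted p of 0.015 to 0.037. With KO2 as the only KO library the size was alike at -0.77, with an adjusted p of 0.065. None of the 10 hepatocyte markers was called, but their sum was below WT in every KO library, as given above. Their median log2 fold change was -0.25, and their part in the fall of Lipc was not tested.

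The window around the start of the principal Lipc transcript (RefSeq, GRCm38.p6, chr9:70934759-70935058, minus strand) is shown because Lipc kept its call in more settings than the other called members. The half-site of nuclear receptors, AGGTCA, stands in capitals and occurred on opposite strands, 88 and 76 bases before the start, with 6 bases between the copies.
Lipc: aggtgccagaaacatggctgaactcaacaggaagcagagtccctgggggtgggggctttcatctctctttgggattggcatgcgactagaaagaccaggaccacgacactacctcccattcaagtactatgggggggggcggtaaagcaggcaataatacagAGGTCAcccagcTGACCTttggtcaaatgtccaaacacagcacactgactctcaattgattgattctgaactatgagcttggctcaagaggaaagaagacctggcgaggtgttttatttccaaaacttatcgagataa

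AGGTCA on either strand was in 16.3% of all 32851 windows of this length, and 1.81% held it at least 2 times. Windows were at hand for 24 of the 31 genes, 31 windows in all, of which 6 (19.4%) held AGGTCA and 11 (35.5%, against 13.6% of all windows) TATAAA. Neighbouring starts share bases, so the 11 windows, of 10 genes, hold TATAAA at 9 separate places, 1 of them in both windows of Apoa5 and 1 in those of Abcg5 and Abcg8. The direct repeats AGGTCANAGGTCA and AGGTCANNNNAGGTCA, each of which contains AGGTCA, were in no window of these genes and in 0.0396% and 0.0152% of all windows. The sterol regulatory element TCACNCCAC (1.24% of all windows) and the interferon-stimulated response element GAAANNGAAA (3.44%) were not found in them either. Both strands were searched, and a match is a description of letters only.

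The other 3 remodelling genes were not called. Lcat, which esterifies cholesterol on high density lipoprotein, averaged 386 ± 39.7 CPM in KO and 370.4 ± 40.5 CPM in WT (SD, n = 3 each), with a 95% interval of the log2 fold change of -0.28 to 0.39. Lipa, the lysosomal acid lipase, had 158, 111 and 179 CPM in KO1 to KO3 and 186, 216 and 179 CPM in WT1 to WT3, at -0.37 (SE 0.18, edgeR adjusted p = 0.28). KO3 was level with the lowest WT library, and with KO2 as the only KO library the log2 fold change of Lipa was -0.80. Pltp, the phospholipid transfer protein, averaged 11.0 ± 2.1 CPM in KO and 13.8 ± 2.0 CPM in WT, and 19.3% of its exon bases overlap Ctsa on the opposite strand.

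None of the 4 sterol transporters was called, and the groups overlapped for each. Abcg5 and Abcg8 together form the pump that sends sterols into bile. Abcg8 had 102, 65.7 and 61.9 CPM in KO1 to KO3 and 88.0, 145 and 140.1 CPM in WT1 to WT3, at a log2 fold change of -0.72 (SE 0.22, edgeR adjusted p = 0.080). Abcg5 had 123, 70.0 and 74.4 CPM in KO1 to KO3 and 99.9, 114 and 135 CPM in WT1 to WT3, at -0.40 (SE 0.21, edgeR adjusted p = 0.32). For both, KO2 and KO3 lay below WT and KO1 within its range. Without KO1 both were called lower, Abcg5 at -0.69 (adjusted p = 0.034) and Abcg8 at -0.97 (adjusted p = 0.015), and without WT1 Abcg8 was (-0.92, adjusted p = 0.042). Abcg8 was also called without a filter (adjusted p = 0.0018) and by the edgeR exact test (adjusted p = 0.0499), but not by DESeq2 (0.072) or limma-voom (0.084).

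Abcg5 and Abcg8 are divergent neighbours on chromosome 17, and their annotated starts lie 110 bases apart. The window of Abcg8 (RefSeq, GRCm38.p6, chr17:84682871-84683170, plus strand) is shown because 209 of its bases are also in the window of Abcg5. The letters TATAAA, on the opposite strand 31 bases before the Abcg8 start, stand in capitals and lie in the shared stretch.
Abcg8: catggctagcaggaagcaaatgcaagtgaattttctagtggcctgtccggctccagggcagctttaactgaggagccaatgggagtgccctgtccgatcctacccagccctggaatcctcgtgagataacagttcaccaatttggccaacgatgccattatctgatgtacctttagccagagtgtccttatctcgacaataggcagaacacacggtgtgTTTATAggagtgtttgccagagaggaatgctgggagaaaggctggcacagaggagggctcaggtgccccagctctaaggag

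Abca1, which loads cholesterol onto apolipoprotein A-I, had 406, 447 and 459 CPM in KO1 to KO3 and 430, 368 and 397 CPM in WT1 to WT3. The groups overlapped, at a log2 fold change of 0.14 with a 95% interval of -0.18 to 0.45. Abcg1, which exports cholesterol to high density lipoprotein and is strong in macrophages, had only 16, 28 and 38 reads in KO1 to KO3 and 13, 19 and 13 in WT1 to WT3. It averaged 12.8 ± 2.7 CPM in KO and 9.79 ± 2.50 CPM in WT (SD, n = 3 each), at 0.40 with an interval of -0.26 to 1.06, beside the macrophage marker sums given above.

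Among the receptors Scarb1 fell. Scarb1, which takes up cholesteryl ester from high density lipoprotein, had 60.7, 57.0 and 66.1 CPM in KO1 to KO3, from 98, 105 and 190 reads, and 88.0, 124 and 94.4 CPM in WT1 to WT3, from 126, 188 and 159 reads. All KO libraries lay below all WT libraries, with less spread in KO. The log2 fold change was -0.73 (SE 0.17, edgeR adjusted p = 0.022), 1.66-fold lower in KO. The call was lost without KO2, WT2 or WT3 (adjusted p = 0.088, 0.11 and 0.060) and with KO2 as the only KO library (-0.85, adjusted p = 0.065). Pdzk1, the adaptor that keeps this receptor at the hepatocyte surface, averaged 67.7 ± 5.7 CPM in KO and 80.6 ± 11.5 CPM in WT (SD, n = 3 each), at -0.24 (edgeR adjusted p = 0.44). Pdzk1 shares 37.5% of its exon bases with Gpr89 on the opposite strand.

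**Figure D5:**
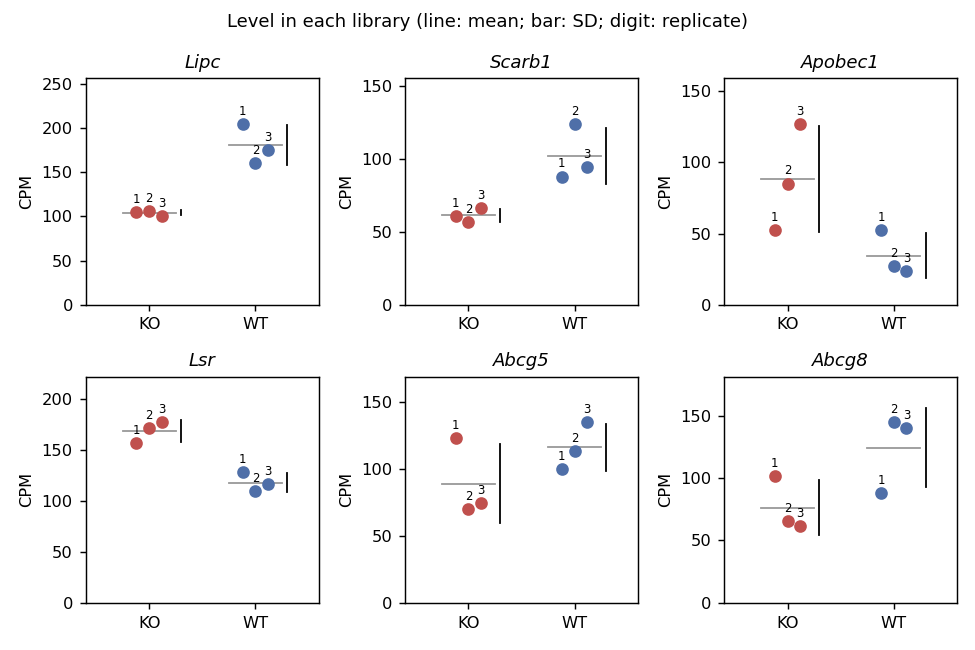
CPM of 6 genes in each library, KO left of WT, with the mean as a line, the SD as a bar and the replicate number beside each point. The KO values of Lipc and Scarb1 all lie below WT and those of Lsr above, KO1 and WT1 of Apobec1 are level at 52.6 and 52.4 CPM, and KO1 is the highest KO library for Abcg5 and Abcg8.

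Lsr, a receptor for triglyceride-rich lipoproteins that is also a protein of tricellular junctions, had 156, 171 and 177 CPM in KO1 to KO3 and 128, 109 and 116 CPM in WT1 to WT3. The groups did not overlap, and the log2 fold change was 0.52 (SE 0.15, 95% interval 0.20 to 0.83, edgeR adjusted p = 0.057). It was called without scaling factors (0.61, adjusted p = 0.028) and by the edgeR exact test (adjusted p = 0.047). An antisense gene with no row of its own overlaps 43.6% of the Lsr exon bases. Lrp1, a large endocytic receptor for remnants, averaged 1054 ± 136.5 CPM in KO and 1219 ± 86.3 CPM in WT (SD, n = 3 each), at -0.21 (edgeR adjusted p = 0.48). Lrpap1, the chaperone of that receptor, averaged 27.8 ± 6.6 CPM in KO and 24.9 ± 4.5 CPM in WT, at 0.19 (edgeR adjusted p = 0.72).

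Of 116 further genes listed for the same pathway, 93 were tested, of which 4 were higher and 6 lower (4.30% and 6.45%, against 3.08% and 2.65% of all tested genes). Their median log2 fold change was -0.02. Of the 116 genes, 17 were listed for their names. Without them 88 were tested, with 2 higher and 6 lower (2.27% and 6.82%). The background of 3.08% higher and 2.65% lower also stands beside the counts of the single pathway lists below. Apol9a and Apol9b, interferon-inducible genes named for apolipoproteins, rose. Apol9a averaged 50.5 ± 19.9 CPM in KO and 4.96 ± 2.01 CPM in WT (SD, n = 3 each), at a log2 fold change of 3.35 (SE 0.38, edgeR adjusted p = 0.00020). Apol9b averaged 52.4 ± 17.2 CPM in KO and 17.1 ± 4.5 CPM in WT, at 1.64 (SE 0.28, edgeR adjusted p = 0.0042). The 2 genes are close paralogs, and no source used here says how the counting split reads between them.

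Of 8 tested plasma proteins that ride on high density lipoprotein, 1 rose. Saa2, an acute-phase serum amyloid A, had 500.3, 1765 and 381 CPM in KO1 to KO3 and 22.4, 199 and 9.50 CPM in WT1 to WT3, at a log2 fold change of 3.52 (edgeR adjusted p = 0.023). The replicates numbered 2 were highest in both groups, and the call was lost without KO2, WT1 or WT3 (adjusted p = 0.093, 0.10 and 0.074) and with DESeq2 (0.12). Its log2 fold change was 2.53 without KO2 and 5.81 without WT2. Saa1, its close paralog, averaged 1206 ± 952 CPM in KO and 203 ± 274 CPM in WT (SD, n = 3 each) and was not called (2.57, edgeR adjusted p = 0.069), with the same limit on how reads were split. Of 21 tested genes of particle assembly, editing and export, 1 rose and 1 fell. Sec31a, a coat protein of export vesicles, had 137, 137 and 139.5 CPM in KO1 to KO3 and 88.7, 98.5 and 100.4 CPM in WT1 to WT3, at 0.53 (edgeR adjusted p = 0.048). Lpcat3, which makes the polyunsaturated phospholipid of lipoprotein membranes, had 116, 109 and 114 CPM in KO1 to KO3 and 161, 172 and 164 CPM in WT1 to WT3, at -0.55 (edgeR adjusted p = 0.037). Both had narrow groups that did not overlap. The call of Sec31a was lost without each library in turn (adjusted p up to 0.15), with DESeq2 (0.0998), with no filter (0.069), with a filter at 1 CPM in 3 libraries (0.063) and with KO2 as the only KO library (0.16). That of Lpcat3 was lost without each library but KO1 (up to 0.12), without scaling factors (0.073) and with KO2 as the only KO library (0.11).

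Of 12 tested genes of sterol trafficking and storage, 1 fell and none rose. Soat2, which makes the cholesteryl ester packed into particles, had 15.5, 10.3 and 19.5 CPM in KO1 to KO3 and 32.8, 32.4 and 30.3 CPM in WT1 to WT3, at -1.04 (SE 0.25, edgeR adjusted p = 0.025). Its call was lost without KO2 or any 1 WT library (adjusted p = 0.075 to 0.086). Of 10 tested genes of intravascular lipolysis, Pcsk6, a proprotein convertase, fell to 50.9 ± 4.6 CPM in KO, against 84.8 ± 7.4 CPM in WT (SD, n = 3 each, edgeR adjusted p = 0.015), a call lost without KO2, WT2 or WT3 (adjusted p up to 0.088). Of 15 tested receptors and their regulators, the scavenger receptor gene Stab2 fell to 63.1 ± 18.7 CPM in KO, against 119 ± 5.7 CPM in WT (edgeR adjusted p = 0.017), a call lost without WT2 or WT3 (0.068 and 0.065). Stab2 is also 1 of the 12 markers of liver endothelium, which summed to 520.5 to 660.0 CPM in KO and 634 to 704 CPM in WT, with 1 called higher and 2 lower.

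Of 22 tested transcription factors of lipoprotein genes, 2 fell and none rose, where 2.65% of all tested genes were called lower. The fitted change was negative for 19 and positive for 3, where 4514 of all tested genes were negative and 4666 positive. The median was -0.29 against 0.01 over all tested genes. The 10 hepatocyte markers had a median of -0.25, and their part in the lower median was not tested. Nr1d1, a repressor of the circadian clock and of lipid genes, had 28.5, 23.3 and 27.8 CPM in KO1 to KO3 and 67.8, 58.2 and 41.6 CPM in WT1 to WT3, at -1.06 (SE 0.21, edgeR adjusted p = 0.010). Its call was lost without WT1 (adjusted p = 0.057). Cebpa, a factor of hepatocyte differentiation, had 128, 103 and 112 CPM in KO1 to KO3 and 176, 152 and 182 CPM in WT1 to WT3, at -0.58 (edgeR adjusted p = 0.044). Its call was lost without each library but KO1 (adjusted p up to 0.17), with upper-quartile factors (0.052), without scaling factors (0.080) and with KO2 as the only KO library (0.068).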

How the data were processed

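Read counts per gene symbol were deposited by the authors, 1 file a library, with no normalization. TopHat 1.4.1, HTSeq, edgeR and mm9 appear in the submitters' processing notes without roles, and no source used here states the strand setting. Per the labels' protocols, liver RNA was extracted with TRIzol and libraries were made with Illumina protocols. Besides 23284 genes, every file ended in 5 totals that the counter adds. Reads in no gene (93.3% to 95.8% of counted reads) and ambiguous reads (0.0130% to 0.0213%) entered neither library sizes nor tests. No column was left unused.

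Counts of all genes were tested with edgeR 4.0.16 (R 4.3.3), with a quasi-likelihood test on TMM-scaled libraries in which genotype was the single term. The filterByExpr filter (minimum count 10) left 9180 genes, and p was adjusted by Benjamini-Hochberg over them, with a threshold of 0.05. Log2 fold changes are KO over WT. Standard errors are the fold change divided by the root of F. The test was tested on simulated data. Exon lengths came from GENCODE M21 and promoter windows from RefSeq, both on GRCm38, by symbol. Named genes were all 31 members and the called genes of the pathway lists. Members and lists were chosen with earlier results of these data known. Alternatives were other scaling factors, DESeq2 1.42.0, limma-voom (limma 3.58.1), the edgeR exact test, other filters, a threshold of 0.1, a replicate block, each library left out with the filter applied anew, and KO2 as the only KO library, which assumes that it varies like the WT libraries. Python 3.11.15 with pandas 2.3.3 and matplotlib 3.10.9 made tables and figures.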

Additional observations from a re-analysis of the deposited data

How the results depend on the processing

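Of 496 log2 fold changes of the 31 genes recomputed under an alternative, 460 kept their direction and side of the threshold, 9 lost the call, 11 gained it and 16 changed sign, none of those 16 for a called gene. The sign changed for Sort1 with DESeq2 (-0.0030), no filter (-0.0098), a filter at 1 CPM in 3 libraries (-0.0013) and KO2 as the only KO library (-0.16), for Apoe without scaling factors (0.018), and with KO2 as the only KO library for Apoc2 (-0.19), Apom (-0.0014) and Lcat (-0.028). With 1 library left out, Sort1 ran from -0.19 to 0.25, Apoc2 from -0.32 to 0.31, Lcat from -0.034 to 0.11, Lrpap1 from -0.039 to 0.31 and Tm6sf2 from -0.11 to 0.26. The cause was not tested. With KO2 as the only KO library Lipc and Scarb1 lost their calls and Apoa2, Apoc3 and Lipa gained one. That fit cannot measure how KO libraries vary. Over all genes, 576 were higher and 509 lower with no filter, 445 and 437 at a threshold of 0.1, and 127 to 409 higher and 95 to 363 lower with 1 library left out. Of the 31 genes, 2 were higher without scaling factors, with the exact test or at 0.1, and 0 to 1 with 1 library left out, and 4 were lower with no filter and 1 to 4 with 1 library left out. Groups did not overlap for 13 to 19 of them (41.9% to 61.3%, against 32.6% to 37.9% of all tested genes) with 1 library left out and for 24 (77.4%, against 63.4%) with KO2 alone, where smaller groups overlap less by construction. Of the pathway genes, 2 were higher with DESeq2, 8 at 0.1 and 2 to 8 with 1 library left out, and 10 were lower with no filter and 1 to 9 with 1 library left out. With the replicate number as a block, 295 genes were higher and 250 lower, Apobec1, Lipc and Scarb1 kept their calls, and Lpcat3 and Sec31a lost theirs (adjusted p = 0.054 and 0.066). Libraries of the same number deviated together at r = -0.0731, 0.0789 and 0.0349, and not every library correlated best with its own number, so the numbers were not taken as pairs. Depth limits Abcg1, Pltp, Tm6sf2, Sort1 and Lrpap1 most.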
